A study of Mus musculus with 24 samples.

Results

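The cytochrome P450 genes of the mouse were taken as the protein-coding genes of GENCODE vM1 on the NCBIM37 (mm9) assembly whose symbol is Cyp followed by a digit, without symbols ending in -ps. This gave 96 of 22350 protein-coding genes, and the other 22254 served as the comparison. Each gene was examined for sites bound by Rev-erbα, the heme-binding nuclear receptor encoded by Nr1d1, which represses transcription in the circadian clock. A site was given to a gene when its centre lay within 10 kb of any annotated transcription start. Distances are to the nearest annotated start of the gene, which can lie inside the gene. P450 enzymes with other names, such as the thromboxane synthase Tbxas1 and the prostacyclin synthase Ptgis, fall outside the symbol rule and were counted separately.

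The series held 24 mouse samples in 16 groups, and 3 groups are described here. The receptor was mapped by ChIP-seq in 2 libraries of white fat from the epididymis (eWAT) and in 1 library of brain, from the ventral tegmental area, and by ChIP-exo in 2 liver libraries. All 3 came from wild-type C57BL/6J mice at zeitgeber time 10 (ZT10), 10 h after lights on, with no mutant allele and no agent named. There were 9016 peaks for eWAT and 10687 for brain, each 150 bp wide with the authors' score. The liver list held 245360 borders, single bases where exonuclease digestion stopped at crosslinked protein, of which 245086 lay on chromosomes 1 to 19 and X. Each group had 1 list for all its libraries, so no spread between animals could be computed and no test was made. Intervals given below are 95% Wilson intervals over genes or sites, which cover counting error only. Read depth and numbers of animals were not stated, and the lists hold positions of binding, so tissue markers could not be checked against expression.

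Cytochrome P450 enzymes are heme proteins that insert oxygen into lipids, steroids, vitamins and foreign compounds, and most take their electrons from P450 oxidoreductase (gene Por). In liver they carry out the synthesis of bile acids from cholesterol and the clearance of drugs, and several are known to be expressed in a daily rhythm. Many of the drug-metabolising enzymes sit in tandem arrays of near-identical copies.

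In the liver list, borders were joined into pairs, a plus-strand border followed 5 to 60 bp downstream by the next minus-strand border, as the 2 edges of 1 protected stretch would leave. There were 26535 such pairs, ranked by the smaller of the 2 border signals. A pair lay within 10 kb of 50 of the 96 P450 genes (52.1%, interval 42.2 to 61.8), against 35.0% of the other genes and 35% of all protein-coding genes. An eWAT peak lay near 12 P450 genes (12.5%, 7.30 to 20.6), against 14.2% of the others and 14.2% of all. A brain peak lay near 5 P450 genes (5.21%, 2.24 to 11.6), against 28.0% of the others and 27.9% of all. The liver interval lay above the share of the other genes, the brain interval below it, and the eWAT interval took it in. Neighbouring copies are not independent, so this is a description and not a test. With only borders of p at most 0.01, pairs lay near 4 P450 genes (4.17%) and 2.92% of the others. With only peaks above the median score of the list, a brain peak lay near 1 P450 gene (1.04%) and 17.3% of the others, and an eWAT peak near 6 (6.25%) and 7.60%.

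**Figure D1:**
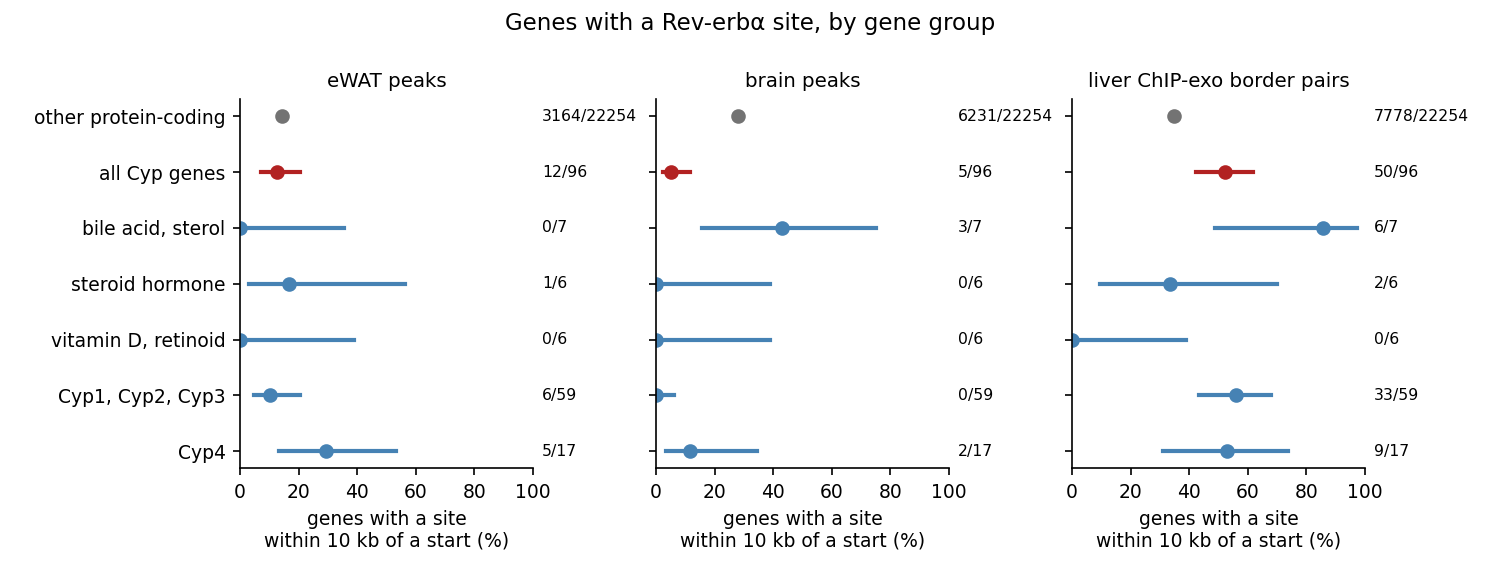
Share of genes (percent) with a Rev-erbα site within 10 kb of a start, for each of the 3 lists; points are shares, lines are 95% Wilson intervals over genes, and the counts stand at the right. The P450 genes as a whole lay above the other genes in liver (50 of 96), below them in brain (5 of 96) and beside them in eWAT (12 of 96).

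The lists combined as follows. Of the 96 genes, 44 had no site in any list, 35 had a liver pair alone, 11 had an eWAT peak and a liver pair, and 4 had a brain peak and a liver pair. Cyp2ab1 had an eWAT peak alone, and Cyp51 a brain peak alone. No P450 gene had both an eWAT and a brain peak (0 of 96, interval up to 3.85%), whereas 1468 of the other genes did (6.60%). With eWAT peaks near 12 and brain peaks near 5 of the 96, little overlap would arise even from independent placement. The 0 is therefore no result apart from the low brain count.

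Among the 7 enzymes of bile acid and sterol metabolism, 6 had a liver pair, 3 had a brain peak and none had an eWAT peak. Cyp7a1, the rate-limiting enzyme of bile acid synthesis, had 3 liver pairs. The highest ranked 400 with border signals of 2.81 and 3.03, and its centre lay 202 bp upstream of the start. The other pairs of Cyp7a1 lay 3026 bp upstream (rank 3231) and 4036 bp downstream (rank 25897). Cyp8b1, which directs the pathway to cholic acid, had 1 pair, 9034 bp upstream at rank 4688. Cyp27a1, the mitochondrial sterol hydroxylase of the alternative pathway, had 5, between 666 bp upstream and 8405 bp downstream, the highest at rank 5589. Cyp39a1, an oxysterol hydroxylase, had 2 pairs, 309 bp upstream at rank 16176 and 4471 bp downstream at rank 15274. The upstream one lay in an exon of the neighbouring gene Slc25a27, 60 bp from the start of Slc25a27. The pair at the Cyp7a1 start is shown here because it was the highest of the bile acid and sterol group and lay close to the start. It is read along the strand of the gene, at chr4:6202955-6203009 on the minus strand, and none of the motifs searched lay between the printed ends.
Cyp7a1: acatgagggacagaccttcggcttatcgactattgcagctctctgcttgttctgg

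The brain peaks in this group lay at Cyp46a1, Cyp7b1 and Cyp51. Cyp46a1, the neuronal hydroxylase through which cholesterol leaves the brain, had a brain peak 1204 bp upstream of its start with a score of 40.0 (rank 1821), the highest brain rank of any P450 gene. Cyp7b1, an oxysterol hydroxylase of the alternative bile acid pathway, had a brain peak 124 bp upstream. Cyp51, the lanosterol demethylase of cholesterol synthesis, had one 12 bp upstream of a start, inside an exon of a transcript that begins farther out. Both of those peaks scored 21.8 (rank 6985), under the list median of 25.5. In liver, the single Cyp46a1 pair ranked 24275, near the foot of the list, and the best of 3 Cyp7b1 pairs ranked 13151, 3098 bp upstream. The nearest liver pair to Cyp51 was 13547 bp from its start. The centre of the Cyp46a1 brain peak is shown as the strongest of the brain sites, at chr12:109571333-109571433 on the plus strand. It held no match to the 13 motifs searched.
Cyp46a1: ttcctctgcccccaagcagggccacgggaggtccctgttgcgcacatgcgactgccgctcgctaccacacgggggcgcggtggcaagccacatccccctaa

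Of the 6 steroid hormone enzymes, 2 had a liver pair, 1 had an eWAT peak and none had a brain peak. The shares were 33.3% in liver, 16.7% in eWAT and 0 in brain (upper bound 39.0%), against 35%, 14.2% and 27.9% of all protein-coding genes. Each interval took in the share of all genes. Cyp17a1, the hydroxylase and lyase needed for androgen synthesis, had the highest pair of any P450 gene after Cyp3a13, at rank 91 with border signals of 5.07 and 7.30. This pair lay in an intron, 1100 bp downstream of an internal start of the gene. Cyp17a1 had 5 pairs in all, the nearest of them 251 bp upstream of its outermost start. An eWAT peak stood 2892 bp upstream of Cyp17a1, with a score of 13.2 (rank 5026). Cyp21a1, which leads to glucocorticoids and mineralocorticoids, had 2 overlapping pairs about the same minus border, 4236 and 4240 bp upstream, both at rank 3145. The remaining 4 genes had no site in any list: Cyp11a1, which cuts the cholesterol side chain, Cyp11b1 and Cyp11b2, which finish corticosterone and aldosterone, and Cyp19a1, the aromatase. Their nearest liver pairs were 20123 bp (Cyp11b2) to 79282 bp (Cyp11a1) away.

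None of the 6 vitamin D and retinoid enzymes had a site in any list, where a count of 0 of 6 has an upper Wilson bound of 39.0%. The shares of all protein-coding genes, 35% in liver, 27.9% in brain and 14.2% in eWAT, lie below that bound. The absence therefore cannot be told apart from those shares. The 6 enzymes were Cyp2r1 and Cyp27b1, which activate vitamin D, Cyp24a1, which breaks it down, and Cyp26a1, Cyp26b1 and Cyp26c1, which degrade retinoic acid. The nearest liver pair was 11923 bp from Cyp24a1, 17389 bp from Cyp27b1 and over 100 kb from the other 4. Single borders were present within 10 kb of all 6 genes, from 2 at Cyp27b1 to 12 at Cyp26a1. Cyp20a1, the 1 gene outside all of these groups, also had no site.

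The Cyp1, Cyp2 and Cyp3 families, which mainly oxidise drugs and other foreign compounds, held 59 of the genes (without Cyp2r1). A liver pair lay near 33 of them (55.9%, 43.3 to 67.8), an eWAT peak near 6 (10.2%) and a brain peak near 0 (upper bound 6.11%). All protein-coding genes had shares of 35%, 14.2% and 27.9%. Cyp3a13, a drug-oxidising enzyme whose gene lies apart from the Cyp3a array, had the highest pair of all 96 genes, at rank 79 with border signals of 5.45 and 7.85 and a centre 5833 bp downstream of the start, in an intron. A neighbouring plus border paired with the same minus border at rank 139, and 2 further pairs lay at 174 and 178 bp upstream of the Cyp3a13 start, at ranks 1696 and 1871. Cyp2a5, the coumarin hydroxylase, had a pair 2385 bp upstream at rank 204 with signals of 3.74 and 4.44. Cyp3a11, the main inducible Cyp3a enzyme of mouse liver, had one 1425 bp upstream at rank 567 with signals of 2.43 and 3.75. Cyp2u1, which hydroxylates long-chain fatty acids, had one 9434 bp upstream at rank 1048.

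The best pairs of the 6 genes with the highest-ranked pairs are shown with the sequences under them. Each is printed from 15 bases before the first border to 15 after the last, along the gene's strand, except Cyp7a1, which stands above. The positions are chr5:138356985-138357043 (minus), chr19:46742876-46742931 (minus), chr7:27617896-27617983 (plus), chr5:146692937-146692994 (minus) and chr3:131015542-131015617 (minus). Capitals mark motif matches on either strand: TTANNTAA, the element of the PAR bZIP factors, at 2 places in Cyp3a13; ATTGAT of HNF6, in reverse complement, in Cyp17a1; the E-box CACGTG in Cyp2a5; and CACGTG overlapping TGTTTAC of FOXA in Cyp2u1. Cyp3a11 held none of them. Beyond the printed ends but within 50 bp of the centre, Cyp3a13 also held AGGTCA and Cyp17a1 the C/EBP sequence TTGCNNAA.
Cyp3a13: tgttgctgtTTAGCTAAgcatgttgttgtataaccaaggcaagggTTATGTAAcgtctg
Cyp17a1: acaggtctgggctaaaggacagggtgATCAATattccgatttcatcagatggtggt
Cyp2a5: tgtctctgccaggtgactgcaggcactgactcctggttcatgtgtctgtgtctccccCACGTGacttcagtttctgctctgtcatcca
Cyp3a11: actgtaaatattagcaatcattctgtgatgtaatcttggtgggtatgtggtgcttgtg
Cyp2u1: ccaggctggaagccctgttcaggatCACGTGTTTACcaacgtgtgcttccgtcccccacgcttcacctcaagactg

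The next 9 genes by their best pair ranked from 1299 to 3308. They were Cyp2t4 (1299), the arachidonic acid epoxygenase Cyp2c44 (1383), Cyp4f17 (1605), Cyp4v3 (1855), Cyp2c37 (2182), Cyp2w1 (2189), Cyp2d26 (2548), Cyp21a1 (3145) and Cyp2a4 (3308). The pair given to Cyp2t4 lay 9571 bp downstream of an internal start, in an exon of Egln2 and 1597 bp from the start of Egln2. Of the 15 highest genes, 13 had a pair in the top 10% of the list (13.5% of all 96), against 4.67% of the other genes. The median best rank was 7519.5 over the 50 P450 genes with a pair and 11933 over the other genes with one.

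**Figure D2:**
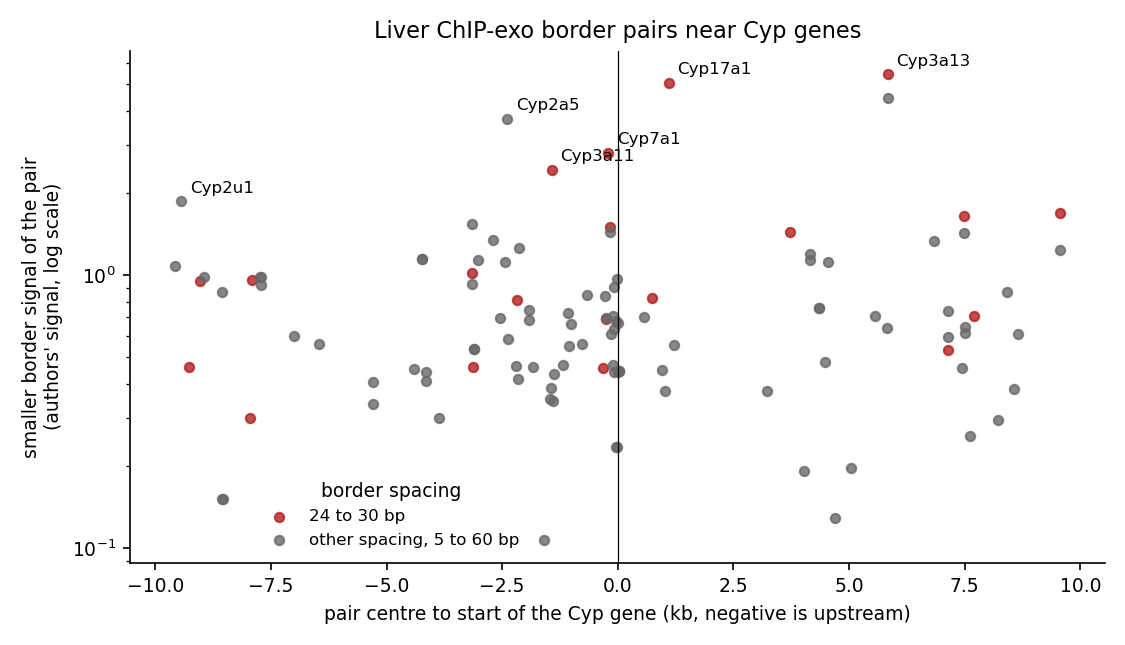
Liver border pairs within 10 kb of P450 genes by distance from the nearest annotated start of the gene (kb, negative upstream) and by the smaller border signal of the pair (log axis); red points have 24 to 30 bp between the borders, grey points any other spacing, and the 6 highest genes are named. The strongest pairs lie on both sides of the starts, from 9434 bp upstream (Cyp2u1) to 5833 bp downstream (Cyp3a13).

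The 112 distinct pairs near P450 genes rested on 89 distinct minus borders, since several plus borders can share a partner. Over the whole list there were 82.8 minus borders for every 100 pairs. Counting each pair once for every gene it lay near, 71 were upstream and 42 downstream of the start. Among distinct pairs, 71 were intergenic, 34 intronic and 7 exonic. A pair lay within 1 kb of a start for 19 of the 96 genes (19.8%) and for 19.8% of the other genes. Pairs at 1 to 10 kb only were found for 31 P450 genes (32.3%) and for 15.2% of the others. The higher share of P450 genes in liver thus lay in pairs beyond 1 kb. The spacing of 24 to 30 bp was held by 22.7% of all pairs and by 21 of the 112 (18.75%). In the top 10% of the list it was held by 45.8% of all pairs and by 8 of the 18 pairs near P450 genes.

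In eWAT, the highest peak near a P450 gene was at Cyp2d22, 1610 bp downstream of the start in an intron, with a score of 47.6 (rank 325 of 9016). It was the only one of the 12 in the top 10% of the list. Cyp2b10, the phenobarbital-induced target of the receptor Nr1i3, followed at rank 1425, with a score of 25.3 at 4272 bp upstream. Cyp2e1, the ethanol-oxidising enzyme, Cyp4f17 and Cyp2ab1 shared a score of 21.3 (rank 2072). The Cyp2e1 peak was 83 bp upstream of the start, the only eWAT peak of the 12 within 1 kb, while those of Cyp4f17 and Cyp2ab1 were 3129 and 5439 bp upstream. Cyp1a1, induced through the dioxin receptor Ahr, had a score of 13.2 (rank 5026) at 1036 bp downstream, and Cyp2f2, a naphthalene-oxidising enzyme, 12.2 (rank 5848) at 8393 bp downstream.

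Cyp2d22 was also the only P450 site, in any list, with a match to the RORE, the extended element that Rev-erbα binds as a monomer, within 50 bp of its centre. The 101 bases around that centre, chr15:82209030-82209130 on the minus strand, carry the match in capitals. Across the whole eWAT list 2.55% of peaks held a RORE in a window of this length, and across its top 10%, to which this peak belongs, 4.87%.
Cyp2d22: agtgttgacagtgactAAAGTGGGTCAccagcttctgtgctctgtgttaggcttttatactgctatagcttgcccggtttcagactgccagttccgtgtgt

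The Cyp4 family, which hydroxylates fatty acids at the far end of the chain, held 17 genes, of which 9 had a liver pair, 5 an eWAT peak and 2 a brain peak. The eWAT peaks were at Cyp4f17 (score 21.3), Cyp4b1 (17.2, rank 3142, 1344 bp upstream), Cyp4a10 (14.2, rank 4438, 1062 bp downstream), Cyp4a14 (11.1, rank 6686, 1624 bp upstream) and Cyp4v3 (10.1, rank 7806, 3719 bp downstream). The start nearest to the Cyp4b1 peak was an internal one, and the peak lay in an intron of Cyp4b1. Cyp4a10 and Cyp4a14 are known targets of the fatty acid receptor Ppara. The score of Cyp4v3 was the lowest that the eWAT list holds. All 5 also had a liver pair. The brain peak counted for Cyp4f13 and Cyp4f14 was 1 peak with a score of 21.8 (rank 6985), 7634 bp upstream of Cyp4f14. It lay in an exon at the downstream end of Cyp4f13, 1173 bp downstream of an internal start. The outermost start of Cyp4f13 was over 10 kb away. With outermost starts only, a brain peak lay near 4 P450 genes.

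At Cyp4f17, Cyp4v3 and Cyp4a10 the eWAT peak overlapped a liver border pair. The eWAT centre at Cyp4f17 lay 3129 bp upstream and the best liver pair 3147 bp upstream (rank 1605, 7 bp between borders). At Cyp4v3 they lay 3719 and 3732 bp downstream (rank 1855, 29 bp between borders). At Cyp4a10 the eWAT centre lay 1062 bp and the overlapping pair 1028 bp downstream (rank 19662, 16 bp between borders). The signal of that pair, 0.376, was under the median of all pairs, 0.535, and it was not the best pair of Cyp4a10. So 3 of the 12 eWAT peaks near P450 genes (25%, 8.89 to 53.2) overlapped a pair, against 11.2% of all eWAT peaks. Of the 12 peak centres, 10 had at least 1 liver border no farther than 100 bp away (83.3%, 55.2 to 95.3), the exceptions being Cyp2ab1 and Cyp2f2. The share was 29.98% over all eWAT peaks, 36.1% over those near other protein-coding genes and 30.8% over other peaks 1 to 10 kb from the nearest start. For brain, 2 of the 4 distinct peaks had a border this near, those of Cyp46a1 and Cyp7b1, against 36.4% of all brain peaks and 48.6% of those near other protein-coding genes. None of the 4 overlapped a pair, against 10.4% of all brain peaks. The 3 eWAT peaks that overlapped a pair are shown as places where the lists met, which differ in tissue as well as assay. They lie at chr17:32640228-32640328 (plus strand) and chr8:46414801-46414901 (minus strand) and chr4:115191915-115192015 (plus strand). Capitals mark the C/EBP sequence TTGCNNAA, in reverse complement, at Cyp4a10, held by 14.0% of all eWAT peaks, and the other two held no match.
Cyp4f17: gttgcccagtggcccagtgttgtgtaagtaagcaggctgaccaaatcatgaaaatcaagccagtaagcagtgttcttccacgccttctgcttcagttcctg
Cyp4v3: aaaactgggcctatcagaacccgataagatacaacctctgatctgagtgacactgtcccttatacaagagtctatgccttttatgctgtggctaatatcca
Cyp4a10: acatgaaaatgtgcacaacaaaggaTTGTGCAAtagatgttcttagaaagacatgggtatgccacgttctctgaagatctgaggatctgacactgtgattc

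By gene, 11 of the 12 P450 genes with an eWAT peak had a liver pair (91.7%, 64.6 to 98.5), against 56.0% of the other genes with an eWAT peak. Of the 84 P450 genes without an eWAT peak, 39 had a liver pair (46.4%), against 31.5% of the other genes without one. The P450 genes nearest to the 10 kb limit were, in eWAT, Cyp2f2 at 8393 bp inside and Cyp2t4 at 10326 bp outside, in brain Cyp4f14 at 7634 bp and Cyp2t4 at 11788 bp, and in liver Cyp8b1 at 9034 bp and Cyp2s1 at 10515 bp.

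**Figure D3:**
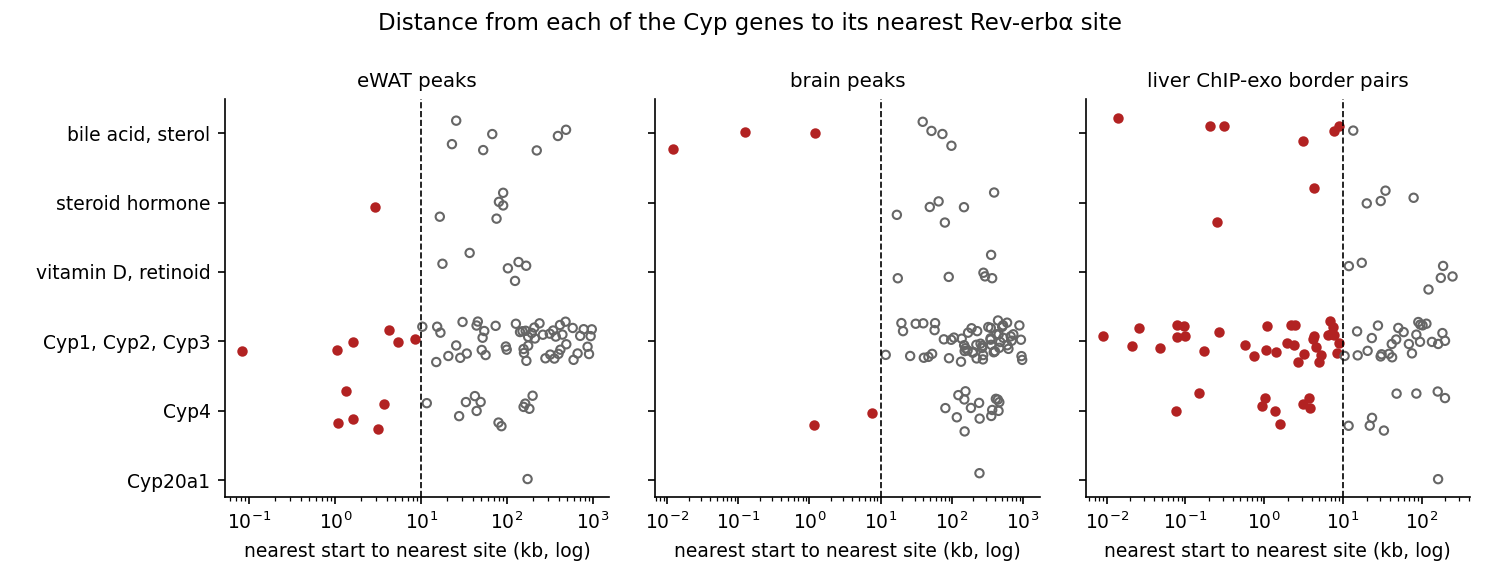
Distance from the nearest start of each of the 96 P450 genes to the nearest site of each list (kb, log axis), by group of enzymes; red points lie within 10 kb (dashed line) and open points beyond. In brain most genes lie far from any peak (median 211118 bp), and in liver close to a pair (median 8744.5 bp).

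Over all 96 genes the median distance to the nearest site was 211118 bp in brain against 47163 bp for the other genes. In liver it was 8744.5 bp and 28049.5 bp, and in eWAT 98077 bp and 78645 bp.

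The 101 bases around each centre were searched for 13 motifs, read in both directions. Among the 112 liver pairs, AGGTCA, the core element of the receptor, was found at 13.4% against 16.1% of all pairs, and a RORE at 0 against 0.592%. RevDR2, the element of paired Rev-erbα, was at 0 in all sites of P450 genes, against 0.143% of all pairs. The C/EBP sequence TTGCNNAA was at 17.9% against 13.6%, ATTGAT of HNF6 at 17.0% against 15.4%, and CACGTG at 8.93% against 10.3%. TTANNTAA was at 3.57% against 4.69%, and TGTTTAC at 5.36% against 4.57%. Within the top 10% of the list, ATTGAT was at 3 of the 18 pairs near P450 genes, against 28.3% of all pairs there. CACGTG was at 5 of the 18 against 18.2%, and TTGCNNAA at 4 against 18.6%. There TTANNTAA was at 2 against 8.52%, TGTTTAC at 1 against 6.67%, and AGGTCA at 3 against 14.7%. CAAAGTCCA of HNF4, GGTCAAAGG (DR1), TCAAGGTCA of LRH-1, which contains AGGTCA, and the DR4 element were at 0 of 112, against 1.23%, 0.592%, 0.445% and 0.109%. GTTAATNAT of HNF1, a liver-enriched factor, was at 4 of 112 (3.57%) against 0.697%. Pairs that share a border share their sequence: these 4 were 2 pairs about 1 minus border near the Cyp17a1 start and 2 about 1 minus border near Cyp2c66, so they rest on 2 stretches. A match is a description of the letters, and its absence says only that these letters were not in the window.

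The genes lay in 39 clusters, counting genes whose starts were within 200 kb of the next as 1 cluster. Of these, 25 held 1 gene and 14 held the other 71 genes, and 25 of the 39 had a liver pair. A cluster of several genes covers more sequence, so this count cannot be set against a share per gene. Within arrays the pairs were unevenly spread. Of the 8 Cyp2d genes on chromosome 15, 7 had a pair, Cyp2d34 being the exception. Of the 7 Cyp2j genes, which make epoxides of arachidonic acid, 1 had a pair, Cyp2j5, 48 bp upstream of its start at rank 9037. Cyp2j5 had 12 borders within 10 kb, and the other Cyp2j genes 0 to 4. Of the 15 Cyp2c genes 9 had a pair, of the 9 Cyp3a genes 4, of the 8 Cyp4f genes 3, and of the 6 Cyp4a genes 4. The share of all protein-coding genes was 35%, and no array was tested against it. In all, 1 pair and 1 brain peak lay near more than 1 P450 gene.

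Copies within an array allowed the same stretch to be compared at 2 genes. Cyp2c37 and Cyp2c50 each had a pair with 41 bp between the borders, 2702 and 1056 bp upstream of their starts, in stretches of 101 bases that were 94.1% identical. The pairs fell at the same base of both stretches. Their border signals differed, 1.34 and 1.35 at Cyp2c37 (rank 2182) and 1.70 and 0.552 at Cyp2c50 (rank 12707). The stretches are printed to show how little separates them, at chr19:40064157-40064257 and chr19:40163072-40163172 on the plus strand, with the 6 bases that differ in capitals.
Cyp2c37: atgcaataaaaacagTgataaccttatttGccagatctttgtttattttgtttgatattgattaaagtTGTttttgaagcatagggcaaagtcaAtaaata
Cyp2c50: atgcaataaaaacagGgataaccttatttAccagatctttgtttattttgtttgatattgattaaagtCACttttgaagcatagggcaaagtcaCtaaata

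Cyp2a5 and Cyp2a4 also had pairs at like places, 2385 and 2443 bp upstream. The stretch under the Cyp2a4 pair was matched near Cyp2a5 with 81.2% identity, 34 bp from the pair there. The stretch under the Cyp2a5 pair was matched near Cyp2a4 with 70.3% identity, 30 bp from the pair there. The Cyp2a5 pair had signals of 3.74 and 4.44, and the Cyp2a4 pair 1.68 and 1.12. Both pairs had the E-box CACGTG within 50 bp of the centre, and at Cyp2a4 it lay beyond the printed ends. The Cyp2a4 stretch, at chr7:27089727-27089805 on the plus strand, is printed beside it.
Cyp2a4: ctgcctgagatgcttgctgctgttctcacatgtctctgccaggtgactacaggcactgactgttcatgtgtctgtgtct

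The stretches under the best pairs of Cyp4a10 and Cyp4a31 each had a match near the other gene, at 77.2 and 76.2% identity, with a pair within 50 bp. Several other copies had no pair at the matched stretch. The stretch under the Cyp3a11 pair was matched at 77.2 to 80.2% identity in Cyp3a16, Cyp3a41a, Cyp3a41b and Cyp3a44, at 1536 to 1711 bp upstream, and none of those 4 stretches had a border within 50 bp. The stretch under the Cyp2c67 pair, 4343 bp downstream at rank 7416, was matched at 91.1% in Cyp2c40 and 89.1% in Cyp2c69, again with no border. The Cyp2b13 stretch (rank 12437) was matched at 96.0% in Cyp2b9, with 1 border within 50 bp and no pair there. In near-identical copies a read can fit more than 1 place, and how the authors treated such reads was not stated.

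The sequence around the genes was measured for this reason. Within 10 kb of the outermost start, the share of 32-base stretches that occur once in the genome had a median of 82.5% in P450 genes and 92.5% in the others. It ranged from 24.3% at Cyp3a41b and 26.7% at Cyp3a41a, neither of which had any border, to 99.0% at Cyp26c1. Cyp2a5 had 8 borders at 36.4%. The liver share of P450 genes was 3 of 9 where under 50% of stretches were single-copy (others 2.56%), 18 of 30 at 50 to 75% (60%, 42.3 to 75.4, others 13.0%) and 29 of 57 at 75 to 100% (50.9%, 38.3 to 63.4, others 39.1%). In each of these bands the P450 liver share was the higher one, and in the last its interval took in the share of the others. An eWAT peak lay near 0 of 9, 1 of 30 and 11 of 57 (others 0.658%, 5.02% and 15.9%). In the last band the eWAT share was 19.3%, and its interval (11.1 to 31.3) took in that of the others. A brain peak lay near 0 of 9, 0 of 30 and 5 of 57 (others 0.804%, 7.63% and 31.6%). The part of read placement in these counts was not tested further.

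Only 9 of the 96 starts (9.38%) were CpG-rich, with over 50% GC and an observed to expected CpG ratio over 0.6 within 500 bp, against 44.4% of the other genes. Among genes with CpG-poor starts, a brain peak lay near 3 of 87 P450 genes (3.45%, 1.18 to 9.65) and 16.4% of the others. Among genes with CpG-rich starts it lay near 2 of 9 (22.2%, 6.32 to 54.7) and 42.5%. These 2 were Cyp46a1 and Cyp51. A liver pair lay near 46 of the 87 with CpG-poor starts (52.9%, 42.5 to 63.0) and 23.95% of the others, and near 4 of the 9 with CpG-rich starts and 48.7% of the others. For eWAT the CpG-poor shares were 12.6% and 11.3%.

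**Figure D4:**
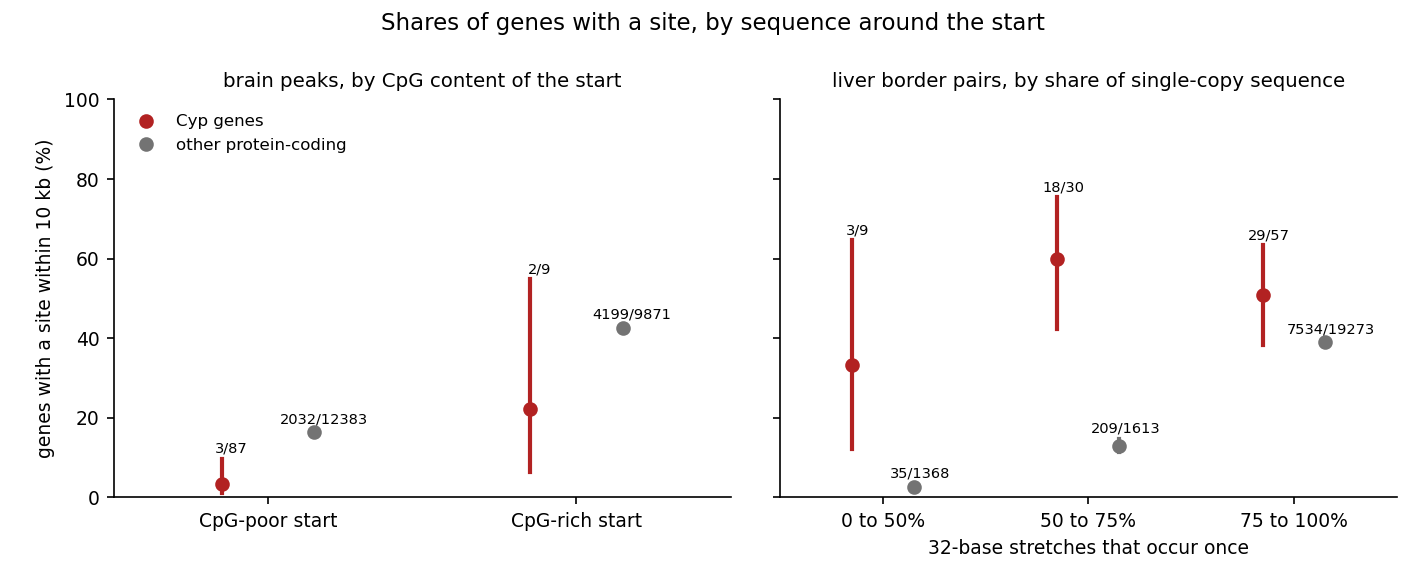
Share of genes (percent, 95% Wilson intervals over genes) with a brain peak by CpG content of the start, and with a liver border pair by the share of 32-base stretches within 10 kb that occur once in the genome; red marks P450 genes, grey the other protein-coding genes. The brain share of P450 genes is the lower one in both CpG classes, and the liver share the higher one in all 3 bands.

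Single liver borders were about as common near P450 genes as near others, with medians of 5 and 4 per gene and at least 1 at 82.3% and 77.4%. Of P450 genes with 1 or 2 borders, 0 of 16 had a pair (upper bound 19.4%), against 0.997% of other genes with as many. With 3 to 5 borders, 11 of 16 had one (68.8%, 44.4 to 85.8), against 24.3%. With 6 to 10 borders the shares were 15 of 21 (71.4%, 50.0 to 86.2) and 54.8%, and with 11 or more 24 of 26 (92.3%, 75.9 to 97.9) and 86.5%. The interval lay above the share of the other genes with 3 to 5 borders, and took it in with 6 to 10 and with 11 or more.

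The partners and regulators of P450 enzymes were counted from lists of their own. Of 6 redox partners, 5 had a liver pair and 3 an eWAT peak, the exception in liver being Fdx1, the mitochondrial electron carrier. The intervals were 43.6 to 97.0% and 18.8 to 81.2%, against 35% and 14.2% of all protein-coding genes. A brain peak lay near 1 of the 6 (16.7%), against 27.9% of all. Por, which reduces the microsomal P450 enzymes, had sites in all 3 lists at nearly the same place: an eWAT peak 395 bp downstream of a start (score 114.5, rank 36), a brain peak 421 bp downstream (76.4, rank 290) and a liver pair 397 bp downstream (signal 4.64, rank 125). All 3 of its ranks were above those of any P450 gene except the liver ranks of Cyp3a13 and Cyp17a1. Its eWAT peak is shown for that reason, at chr5:136150800-136150900 on the plus strand, with an E-box CACGTG in capitals, a sequence held by 9.11% of all eWAT peaks in such a window and by 25.1% of the top 10% of peaks, to which this one belongs.
Por: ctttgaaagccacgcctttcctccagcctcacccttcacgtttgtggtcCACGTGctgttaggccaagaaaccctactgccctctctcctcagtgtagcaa

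Cyb5a and Cyb5b, the cytochromes that pass a further electron to some P450 enzymes, had eWAT peaks at ranks 839 and 365 and liver pairs at ranks 8945 and 7091. Cyb5r3, their reductase, had a liver pair at rank 1287, and Fdxr, the mitochondrial reductase, one at rank 10997. All 11 regulators had a liver pair, 5 a brain peak and 2 an eWAT peak. The shares of all protein-coding genes were 35%, 27.9% and 14.2%. The intervals in brain (21.3 to 72.0%) and eWAT (5.14 to 47.7%) took these in, and that in liver (from 74.1%) did not. Ppara, the fatty acid receptor, had 14 pairs, the best at rank 15 with a signal of 11.2, 816 bp upstream. Nr1i2, the drug sensor PXR, had its best at rank 1163, Nr0b2, the bile acid-induced repressor SHP, at rank 1592, and Hnf4a, a hepatocyte factor, at rank 2080. The liver ranks of Nr1h4 (6750), the bile acid receptor FXR, Rxra (10781), Nr5a2 (14708), Nr1i3 (14951), Arnt (15311), Nr1h3 (16874) and Ahr (25875) were lower. The brain peaks were at Nr1i3, Arnt, Rxra, Nr0b2 and Nr1h3, with scores of 21.8 or 25.5, and the eWAT peaks at Rxra (12.2) and Nr1h3 (19.2). Tbxas1 had brain peaks and a liver pair, and Ptgis an eWAT peak.

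Other detoxification families gave a range of values beside those of the P450 genes. A liver pair lay near 9 of 18 Ugt genes (50.0%), 4 of 17 Sult genes (23.5%) and 16 of 22 Gst genes (72.7%). An eWAT peak lay near 3, 0 and 10 of them, and a brain peak near 0, 1 and 8. Of 12 apolipoprotein genes, 11 had a liver pair and 5 a peak in each of eWAT and brain. Among all protein-coding genes 35% had a liver pair, 14.2% an eWAT peak and 27.9% a brain peak. The P450 share in liver, 52.1%, stood inside the range of the detoxification families. Its brain share, 5.21%, stood between that of the Ugt genes and that of the Sult genes (5.88%).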

How the data were processed

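Rev-erbα binding was measured by ChIP-seq and ChIP-exo at ZT10. Per the submitters' processing notes, the build was mm9, and Bowtie 0.12.8 (ChIP-seq), Bowtie 1.1.1 (ChIP-exo) and HOMER were used, with no roles given. The authors deposited 150 bp peaks with a score per peak for eWAT and brain, and for liver borders with a signal and a p-value, per the file headers. How the score, the signal and the p-value were computed, how libraries were joined, the peak threshold and the treatment of reads with several matches are, in the sources used here, not given. The deposited p-values ran from 0.00503 to 0.05.

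Python 3.11.15 with pandas 2.3.3, scipy 1.17.1 and numba 0.67.0 was used with NCBIM37 sequence and GENCODE vM1. Chromosomes 1 to 19 and X held 70018 starts of 22350 protein-coding genes. Pairs were made of a plus border and the first minus border after it, 5 to 60 bp on, and a pair's signal was the smaller of the 2. Scores and signals were ranked within a list, ties sharing the best rank. The other 13 groups were not analysed here. Distances, pairing and matching were tested on simulated data.

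Named were genes with an eWAT or brain peak, the 15 genes with the highest liver pairs, all bile acid, sterol, steroid, vitamin D and retinoid enzymes, those nearest the 10 kb limit, and redox partners and regulators with a site. Genes given for paralogs, arrays and sequence bands were chosen after their values were seen. The P450 genes and the lists were chosen with earlier results of these data known. Cyb5a was matched by its older symbol Cyb5 in RefSeq. Alternatives were other windows, starts, gene assignments, score, p and signal limits, spacings and single borders.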

Additional observations from a re-analysis of the deposited data

How the results depend on the processing

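The counts of P450 genes with a site were recomputed under 19 alternatives. With a 25 kb window they were 21 in eWAT (21.9%, other genes 25.5%) and 10 in brain (10.4%, others 38.9%). Peaks above the median score alone gave 6 in eWAT and 1 in brain. For liver, borders with p at most 0.01 gave 4 genes (4.17%, others 2.92%), and any single border gave 79 (82.3%, others 77.4%). Of all borders 32.6% had such a p, but of the borders in pairs 17.1%. In each of the 9 liver alternatives the P450 share was the higher one, and in each of the 5 brain alternatives the lower one. In eWAT the P450 share was the higher with a 5 kb window, with outermost starts and with nearest genes only, and the lower in the other alternatives. The remaining counts stayed within 1.5 times of those reported. No library could be left out, because each group had 1 list. No paired analysis was possible because the groups come from different tissues and no result comes from a test. Depth is unknown, so a gene without a site may have one below the authors' threshold.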
